A study of Homo sapiens with 16 samples.

Results

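The nuclear genes for the subunits of oxidative phosphorylation were followed through RNA-seq and ribosome footprints of young and senescent WI-38 cells. WI-38 cells are human lung fibroblasts. Members were taken by symbol, as the families NDUFA, NDUFB, NDUFC, NDUFS and NDUFV followed by a number, SDHA to SDHD, UQCR, COX4 to COX8, and ATP5, leaving out symbols that end as pseudogenes do. This gave 88 of the 23597 genes listed in the RNA-seq table, and the same 88 of the 19201 listed for Ribo-seq: 39 of complex I, 4 of complex II, 9 of complex III, 17 of complex IV and 19 of complex V. Of these, 74 code for annotated subunits and 7 are isoforms of subunits used in other tissues or conditions. The remaining 7 are readthrough genes, copies, or genes named for a complex without being a subunit of it. The symbols are those of the older nomenclature, so ATP synthase subunits carry names such as ATP5A1 and ATP5B.

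Cells were young, at passage 24, or senescent, at passage 36, and were either controls or harvested after heat shock for 2 h at 44 °C, as the label's temperature was read. Cells of all groups had first been starved of serum for 24 h and returned to complete medium. Each of the 4 conditions had 2 RNA-seq libraries, which measure mRNA, and 2 Ribo-seq libraries, which count the stretches of mRNA that ribosomes protect from nuclease. The labels name 1 cell line and number the libraries without saying whether the numbers stand for separate cultures, so p-values measure the spread between libraries, which may be technical.

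Oxidative phosphorylation takes place in the inner mitochondrial membrane. Complexes I and II pass electrons from NADH and from succinate to ubiquinone, complex III passes them on to cytochrome c, and complex IV reduces oxygen. Complexes I, III and IV pump protons, and complex V, the ATP synthase, uses the proton gradient to make ATP. Most subunits are encoded in the nucleus, translated by cytosolic ribosomes and imported, while a small set is made from mitochondrial DNA; those mitochondrially encoded subunits are not analysed here. Fibroblasts in culture use the system for part of their ATP and for disposing of electrons, and the muscle and testis isoforms of several complex IV subunits are little used in them.

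Promoters of respiratory genes are known for binding sites of NRF1 and of the ETS factor GABP. RefSeq promoter windows of the GRCh38.p14 build, reaching 250 bases before to 50 after the start of a gene, were matched for 60 of the 88 members. A member was kept only where exactly 1 window was found, a condition not put on the windows of all genes. The letters GCGCANGCGC, taken for NRF1, occurred on either strand in 16 of these windows, or 26.7%, against 5.78% of the 35116 windows of all genes. The letters CCGGAAG, taken for ETS factors, occurred in 17, or 28.3%, against 10.3%. At least 1 of the motifs was present in 30 windows, or 50%, against 14.9% of all windows. By complex, 10 of 29 windows of complex I held a motif, 3 of 3 of complex II, 6 of 7 of complex III, 6 of 12 of complex IV and 5 of 9 of complex V. A match of letters is a description of the window and was not set against any binding data. The 120 bases before the start are shown for members of complexes II and III on which the results below turn, or whose windows hold several matches, with matches in capitals. SDHB, at chr1:17054033-17054152 on the minus strand, has its ETS match further upstream and so shows no capitals. UQCRQ lies at chr5:132866522-132866641 on the plus strand, UQCR11 at chr19:1605463-1605582 on the minus strand, SDHA at chr5:218200-218319 on the plus strand, and SDHD at chr11:112086753-112086872 on the plus strand.
SDHB: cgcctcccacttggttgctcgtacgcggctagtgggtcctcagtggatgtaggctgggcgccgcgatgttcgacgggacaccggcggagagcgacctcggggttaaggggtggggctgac
UQCRQ: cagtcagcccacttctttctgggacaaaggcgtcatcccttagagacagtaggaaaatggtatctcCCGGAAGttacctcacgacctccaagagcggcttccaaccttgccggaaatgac
UQCR11: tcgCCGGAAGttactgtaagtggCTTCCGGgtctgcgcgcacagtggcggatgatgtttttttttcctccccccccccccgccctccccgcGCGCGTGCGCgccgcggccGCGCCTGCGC
SDHA: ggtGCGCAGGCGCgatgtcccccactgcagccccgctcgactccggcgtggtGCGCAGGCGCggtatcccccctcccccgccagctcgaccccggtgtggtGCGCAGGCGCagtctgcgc
SDHD: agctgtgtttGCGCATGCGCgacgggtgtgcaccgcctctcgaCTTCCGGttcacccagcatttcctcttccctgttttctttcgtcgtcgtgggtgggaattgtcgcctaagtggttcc

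The RNA libraries held 26434514 to 37126871 counts and the footprint libraries 4581141 to 9104077. As a check of the treatment, the 5 heat shock genes HSPA1A, HSPA1B, HSPA6, DNAJB1 and HSPH1 had a median log2 change in RNA of 8.06 in young and 7.34 in senescent cells. Summed TPM (transcript level scaled by gene length and library) of 8 fibroblast markers was 9934 to 15139 in the RNA libraries, that of 4 endothelial markers at most 0.35, and that of 6 epithelial markers 133 to 136 in young controls, 143 to 147 in heat-shocked young cells and 188 to 224 in senescent cells, with SFTPC at 0 throughout; the part of these in the results was not tested. Summed TPM of 4 immune markers was 103 to 178 in the RNA libraries, with CD3E at 0 throughout, and that of 4 muscle markers 1.17 to 3.87. Their part was not tested either. In such bulk libraries fewer cells of a type and less RNA per cell cannot be told apart. The young control footprint libraries differed from each other by little more than counting noise, with a mean chi-square of 1.73 per gene against 17.2 to 38.7 in the other footprint pairs. With these libraries counted as 1 sample, 0 of 80 members were called in any footprint comparison by edgeR, and the footprint medians of the comparisons below that use them were 0.28 (young heat shock, 68 above 0), 0.26 (difference of responses, 68 above 0) and -0.08 (senescent against young controls, 31 above 0).

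Most members were abundant in both assays. Of the 88, 81 had at least 1 TPM in every RNA library and 79 in every footprint library. In young controls the median member had 185 TPM in RNA and 293 TPM in footprints, against 25.1 and 22.6 TPM for the median of 9131 genes measured in all groups, on the length-scaled TPM scale. The median RNA level was 142 TPM for complex I, 106 for complex II, 139 for complex III, 351 for complex IV and 290 for complex V. Medians of footprints ran from 152 TPM in complex II to 690 TPM in complex IV, with 229 in complex I, 300 in complex III and 388 in complex V. The ATP synthase epsilon subunit gene ATP5E had the highest RNA level, at 1251 and 1205 TPM in the young control libraries. Its neighbours in the order were ATP5B, which codes for the catalytic beta subunit, at 906 and 940 TPM, and COX7C at 780 and 732 TPM.

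The isoforms known from muscle, testis or low oxygen were low or not detected. COX4I2, COX6A2 and COX7B2 were listed at 0 in all 16 libraries, and COX6B2 and COX8C stayed below 1 TPM in each RNA library. NDUFA4L2, a hypoxia-induced paralog of NDUFA4, had 0.57 to 1.95 TPM in RNA and at most 2.02 TPM in footprints. COX7A1, the muscle and heart form of a complex IV subunit, was the exception, with 7.47 to 15.7 TPM in RNA, and its ubiquitous partner COX7A2 had 314 to 376 TPM. The c-ring genes code for the same mature rotor protein. By TPM, ATP5G2 had the highest RNA level of them in young controls, at 425 and 430 TPM. ATP5G1 followed at 253 and 245 TPM and ATP5G3 at 160 and 151 TPM, without overlap between libraries. In footprints the order by TPM differed, with ATP5G3 highest at 829 and 825 TPM. ATP5G2 had 675 and 682 TPM and ATP5G1 281 and 255 TPM. By CPM (counts scaled to library size after TMM scaling, not corrected for length) both assays had the same order. ATP5G3 had 187 and 189 CPM in RNA, ATP5G2 160 and 172 and ATP5G1 60.2 and 62.3. In footprints they had 309 and 307, 290 and 293, and 99.0 and 89.9 CPM. The change of order was thus seen on the length-scaled TPM only.

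Footprints per RNA, as the log2 ratio of mean TPM, spread widely among subunits of the same complex. In young controls the median ratio was 0.52 over 79 members and -0.16 over all 9131 genes, and 58 of the 79 were above 0. Complex medians were 0.48 for I, 0.37 for II, 0.42 for III, 0.79 for IV and 0.30 for V. Within complex III, UQCRB, a small ubiquinol-binding subunit, had a ratio of 4.20, at percentile 99.9 of all genes, while the core protein UQCRC1 had -0.89, at percentile 19.8. Complex II spanned SDHC, a membrane anchor with 2.18, and SDHB, the iron-sulfur subunit, with -0.74. In complex I, NDUFA5 had 3.59, NDUFA4 had 3.04 and the flavin-binding NDUFV1 -0.80. NDUFA4 is now assigned to complex IV and is counted with complex I here by its symbol. Several of these small genes have near-identical processed copies in the genome that could share reads, so ratios of single members are uncertain. The ratios also depend on the length scaling of TPM. By CPM, UQCRB had 157 and 125 in RNA of young controls and 310 and 327 in footprints. UQCRC1 had 166 and 216 CPM in RNA and 200 and 217 CPM in footprints. NDUFA5 had 34.8 and 27.5 CPM in RNA and 39.3 and 39.9 CPM in footprints. For these members the assays thus stood closer by CPM than by TPM. The rank correlation of RNA with footprint level in young controls was 0.709 across the 79 members and 0.848 across all genes, as a description, since genes of the same library are not independent replicates.

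**Figure D1:**
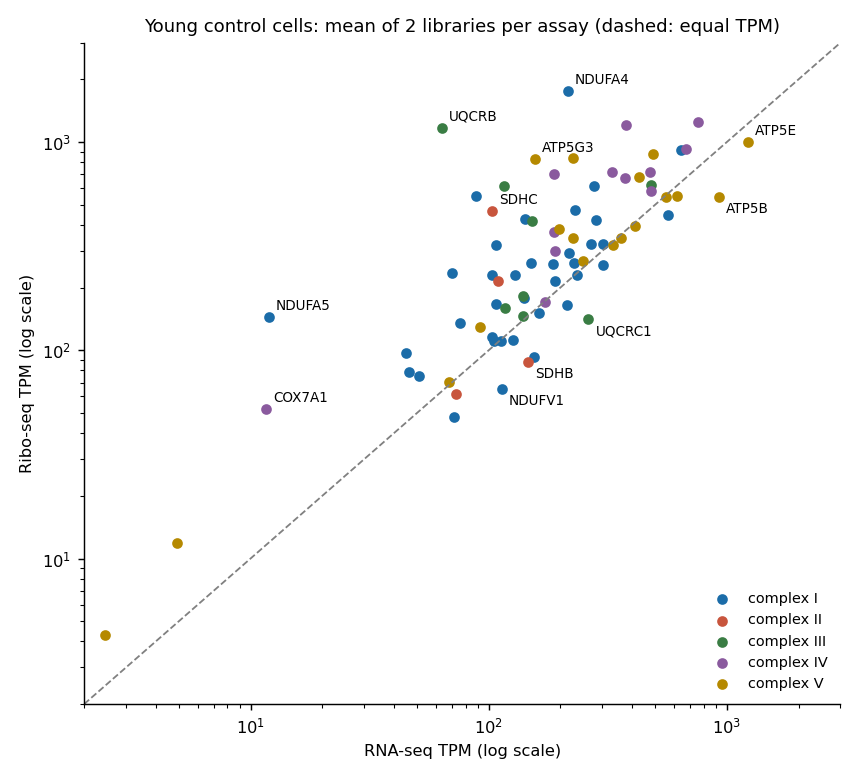
Mean Ribo-seq TPM against mean RNA-seq TPM of each of 79 members in young control cells (2 libraries per assay), on log axes and coloured by complex, with a dashed line of equal TPM. On this length-scaled scale most members (58 of 79) lie above the line, UQCRB, NDUFA5 and NDUFA4 farthest above it, while UQCRC1, NDUFV1, ATP5B and SDHB lie below.

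The first comparison was of heat-shocked with control young cells, in RNA. No member passed the test, and the members as a list stood slightly higher: the median log2 change of the 82 tested members was 0.18, against 0.01 for all 13177 genes tested, and 75 of the 82, or 91.5%, were above 0 against 51.1% of all genes. In edgeR's quasi-likelihood test with Benjamini-Hochberg adjustment 0 of 82 members were called, where 1.14% of all genes were. At an unadjusted p under 0.05 there was 1 higher and 1 lower, where 10.1% of all genes lay. DESeq2 called 2, or 2.44%, where it called 3.38% of all genes, and limma on log2(TPM + 1) called 0. The 2 heat-shocked libraries lay above both controls for 42 members, or 51.2%, against 19.5% of all genes, and below both for 3, against 20.7% of all genes. All 5 complexes had similar medians, 0.19 (complex I, 35 of 39 above 0), 0.15 (II, 4 of 4), 0.18 (III, 7 of 9), 0.25 (IV, 12 of 12) and 0.17 (V, 17 of 18). These directions depend on the scale. Scaled by library size alone the members' median was -0.10 and that of all genes -0.27, so that only the distance from the other genes, 0.17 in both, had the same sign. By library size the complex medians ran from -0.13 to -0.03.

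Single members with the farthest RNA values in young cells were in complex I. NDUFV3, a small accessory subunit of the NADH-oxidising module, had 40.7 and 35.7 CPM (counts scaled to library size after TMM scaling, not corrected for length) in controls and 24.5 and 20.2 CPM after heat shock. Both heat-shocked libraries lay below both controls. Its log2 change was -0.77 ± 0.21 (SE, n = 2 libraries per group), with an adjusted p of 0.1857 in edgeR's test, and DESeq2 called it at -0.76. The readthrough gene NDUFC2-KCTD14, which shares exons with NDUFC2 so that its reads are uncertain, had 3.10 and 5.36 CPM in controls and 9.81 and 15.8 CPM after heat shock. Only heat-shocked young cells had a mean of 10 CPM or more, and edgeR did not call it (log2 change 1.60 ± 0.38), while DESeq2 did. In senescent cells it had 2.44 and 3.94 CPM in controls and 7.95 and 8.31 CPM after heat shock, a change of 1.35 ± 0.39 that was not called either. UQCRFS1, the Rieske iron-sulfur protein of complex III, had the lowest change of its complex among members at a mean of at least 10 CPM, -0.14 ± 0.19.

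In senescent cells, RNA of the members differed less from the controls on heat shock. The median of the 82 tested members was 0.09, against -0.01 for all genes, and 52 of them were above 0, or 63.4% against 48.8%. In edgeR's test 0 of 82 were called, where 0.577% of all genes were; 1 was higher and 0 lower at an unadjusted p under 0.05, against 8.29% of all genes, and neither DESeq2 nor limma on TPM called any. Of all genes, DESeq2 called 2.14% there. The heat-shocked libraries lay above both controls for 20 members, or 24.4% against 14.7% of all genes, and below both for 4, against 16.4%. Complex medians were 0.06 (I, 22 of 39 above 0), -0.07 (II, 1 of 4), 0.14 (III, 6 of 9), 0.12 (IV, 11 of 12) and 0.12 (V, 12 of 18). The direction rested on 1 library: without heat-shocked senescent replicate 2 the members' median was -0.06, and without replicate 1 it was 0.21. By library size alone it was -0.14. The difference of the RNA responses, senescent minus young, had a median of -0.10 over the members and -0.01 over all genes, and 26 of the 82 were above 0 against 49.2% of all genes. In edgeR's test 0 of 82 were called, where 0% of all genes were. At an unadjusted p under 0.05 there were 0, against 0.903% of all genes. DESeq2 called 0, where it called 0.0228% of all genes, and limma on TPM called 0. Without heat-shocked senescent replicate 1 the members' median of this difference was 0.04.

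Footprints of young cells gave a like picture. The median log2 change on heat shock over the 79 tested members was 0.25, against -0.01 for all 11288 genes tested, and 68 of the 79 were above 0, or 86.1% against 49.5%. In edgeR's test 0 of 79 members were called, where 1.15% of all genes were. At an unadjusted p under 0.05 there were 8 higher and 1 lower, against 16% of all genes in either direction. DESeq2 called 1, or 1.27%, where it called 4% of all genes, and limma on TPM called 0. Heat-shocked libraries lay above both controls for 41 members, or 51.9% against 27.5% of all genes, and below both for 2, against 31.6%. Complex medians were 0.23 (I, 30 of 37 above 0), 0.39 (II, 4 of 4), 0.44 (III, 7 of 8), 0.33 (IV, 10 of 12) and 0.22 (V, 17 of 18). By library size alone the members' median was -0.00 and that of all genes -0.28, and complexes I and V stood at -0.04 and -0.05 while II, III and IV stayed above 0 at 0.12, 0.17 and 0.05.

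The highest footprint change of young cells was that of UQCR11, a small accessory subunit of complex III. It had 13.7 and 15.0 CPM in young controls and 28.5 and 37.4 CPM in heat-shocked young cells, with 27.7 and 25.0 CPM in senescent controls and 36.4 and 49.2 CPM in heat-shocked senescent cells. The young controls lay below the other 6 libraries, in each state the heat-shocked libraries lay above the controls, and heat-shocked young and senescent libraries overlapped. Its change on heat shock was 1.20 ± 0.25 in young cells, with an adjusted p of 0.05997 in edgeR's test, and 0.70 ± 0.25 in senescent cells. DESeq2 called the young change, at 1.22. Its RNA change in young cells was 0.32 ± 0.26. SDHC had 0.60 ± 0.19, UQCRQ 0.65 ± 0.21 and ATP5L, a membrane subunit of ATP synthase, 0.58 ± 0.17 in young footprints, none of them called. NDUFV3 was again the lowest of complex I, with 70.7 and 78.6 CPM in controls, 48.3 and 52.0 CPM after heat shock and a change of -0.57 ± 0.20 that was not called.

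The comparison with the largest median shift was that of footprints in heat-shocked against control senescent cells. Here 78 of the 79 tested members had a change above 0, or 98.7% against 51.6% of all genes, with a median of 0.53 against 0.03. The exception was NDUFV3 at -0.31 ± 0.19. Few single members passed: edgeR's test called 2 of 79, SDHB and UQCRQ, both higher, a share of 2.53% beside 3.08% of all genes called higher, 5.20% called lower and 8.28% in all, so the count of calls was near that of genes in general. At an unadjusted p under 0.05 there were 31 members higher, or 39.2% against 12.9% of all genes, and 0 lower against 15.8%. Both heat-shocked libraries lay above both controls for 57 members, or 72.2% against 26.9%, and below both for 1, against 27%. With library size alone the members' median was 0.24 and that of all genes -0.25, and 65 of 79 were above 0.

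All 5 complexes had similar medians in these footprints. Medians were 0.52 in complex I (36 of 37 above 0), 0.58 in II (4 of 4), 0.55 in III (8 of 8), 0.56 in IV (12 of 12) and 0.45 in V (18 of 18), and the ranges of single members overlapped. By library size alone the medians were 0.17 to 0.30. Complex I changes ran from -0.31 to 0.86 and complex V changes from 0.12 to 0.80. Within complex I the 7 catalytic core subunits had a median of 0.38 and the 30 accessory subunits 0.53. Within complex V the median was 0.41 for the F1 head, 0.60 for the peripheral stalk, 0.51 for the c-ring and 0.61 for the accessory membrane subunits. In complex III the 2 core proteins had 0.55 and the accessory subunits 0.70, with the Rieske protein UQCRFS1 at 0.10. Differences between complexes or their parts were not tested.

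**Figure D2:**
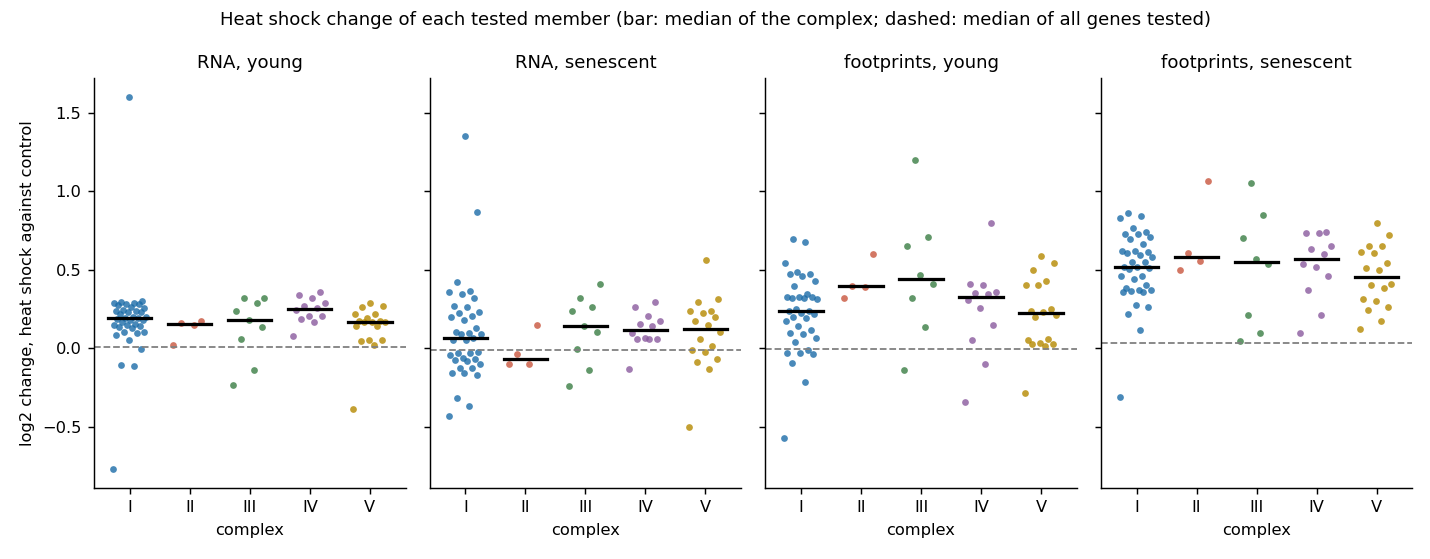
Log2 change on heat shock of each tested member by complex, in RNA and footprints of young and senescent cells, with a bar at each complex's median and a dashed line at the median of all genes tested. In footprints of senescent cells all complex medians lie between 0.45 and 0.58, well above the line at 0.03, and a single member lies below 0.

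Complex II, which links the citric acid cycle to the electron chain, held the clearest member. SDHB, its iron-sulfur subunit, rose in footprints of senescent cells, from 58.5 and 68.7 CPM in controls to 130 and 137 CPM after heat shock. In young cells it had 72.5 and 72.1 CPM in controls and 104 and 86.6 CPM after heat shock. Heat-shocked senescent libraries were the highest of the 8 and senescent controls the lowest, with no overlap between any of the 4 groups. The change was 1.07 ± 0.20 in senescent cells, with an adjusted p of 0.01874 in edgeR's test, and 0.40 ± 0.20 in young cells; the difference of these changes, 0.67 ± 0.28, did not pass, with an adjusted p of 0.8342 in edgeR's test. RNA of SDHB moved little by CPM, from 88.2 and 77.5 CPM to 75.6 and 85.6 CPM in senescent cells, with overlapping groups and a change of -0.04 ± 0.18. On the TPM scale it lay lower after heat shock, at 127 and 121 TPM against 160 and 135 TPM in senescent controls, without overlap. The other subunits of complex II had lower values: 0.50 ± 0.20 for the flavoprotein SDHA, 0.61 ± 0.19 for SDHC and 0.55 ± 0.29 for SDHD, none of them called. SDHA had 146 and 133 CPM in senescent controls and 177 and 217 CPM after heat shock, and these did not overlap.

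The call of SDHB did not hold in every setting. It was lost when any of 5 footprint libraries was left out: senescent control replicate 1 (0.09226), senescent control replicate 2 (0.05359), heat-shocked senescent replicate 2 (0.06056), young control replicate 1 (0.06776) and young control replicate 2 (0.06747), each an adjusted p from edgeR's test. It was also lost with the young controls counted as 1 sample (adjusted p = 0.06746 in edgeR's test) and with only the 4 libraries compared in the fit (0.07307). The log2 change of SDHB stayed between 0.75 and 1.19 over all alternatives tried, the lowest by limma on log2(TPM + 1). The call of UQCRQ was lost without any 1 footprint library except heat-shocked senescent replicate 1, with adjusted p between 0.0602 and 0.1639 in edgeR's test. It was lost as well by library size alone, by limma on log2(TPM + 1), with the young controls as 1 sample and with only the 4 libraries compared.

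UQCRQ, a small subunit of complex III close to cytochrome b, rose in senescent footprints from 123 and 137 CPM in controls to 195 and 273 CPM. Young cells had 108 and 108 CPM in controls and 162 and 177 CPM after heat shock. In both states the heat-shocked libraries lay above the controls, and the change was 0.85 ± 0.21 in senescent cells, with an adjusted p of 0.04305 in edgeR's test, and 0.65 ± 0.21 in young cells. Its RNA also lay higher after heat shock, at 122 and 143 CPM against 98.7 and 101 CPM in senescent controls, a change of 0.41 ± 0.18 that was not called. The core proteins UQCRC1 and UQCRC2 had 0.56 ± 0.17 and 0.53 ± 0.19 in senescent footprints, and neither was called by edgeR. UQCRFS1, the Rieske protein, did not share the shift: its footprints were 95.9 and 127 CPM in senescent controls and 107 and 132 CPM after heat shock, which overlap, with a change of 0.10 ± 0.23. UQCRB had 0.04 ± 0.23.

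**Figure D3:**
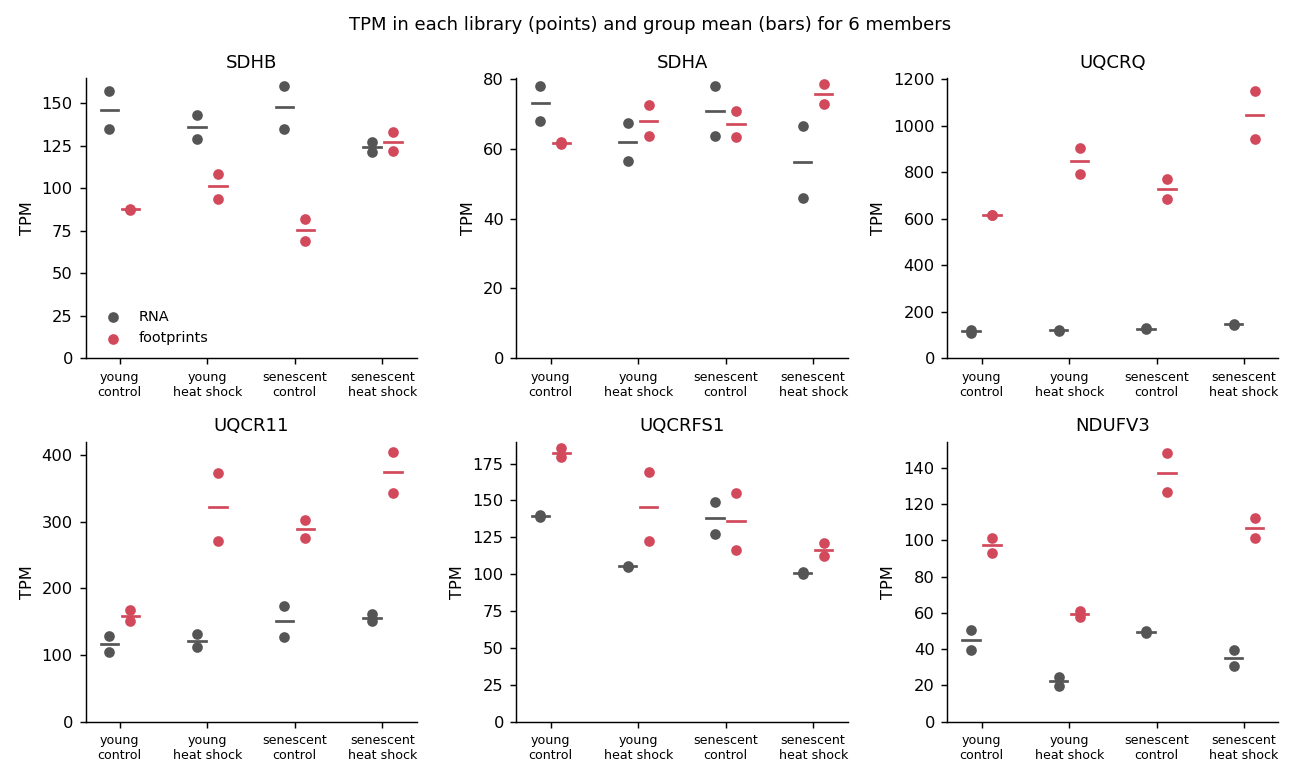
TPM in each RNA-seq (grey) and Ribo-seq (red) library and group means for SDHB, SDHA, UQCRQ, UQCR11, UQCRFS1 and NDUFV3. Footprints of SDHB are 69.2 and 81.9 TPM in senescent controls and 133 and 122 TPM after heat shock while its RNA is not higher, and footprints of NDUFV3 are lowest in heat-shocked young cells.

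Several members of complexes I, IV and V came close to the threshold in senescent footprints. ATP5J, a peripheral stalk subunit of ATP synthase, had 82.6 and 99.7 CPM in controls and 149 and 169 CPM after heat shock, without overlap, and a change of 0.80 ± 0.22 with an adjusted p of 0.05773 in edgeR's test. NDUFA8, an accessory subunit of complex I, had 56.8 and 73.4 CPM in controls and 103 and 119 CPM after heat shock, and a change of 0.77 ± 0.21 with an adjusted p of 0.05816 in edgeR's test. The accessory subunits NDUFB3 (0.74 ± 0.22), NDUFB10 (0.69 ± 0.20) and NDUFA12 (0.73 ± 0.22) had values of the same size. Of complex IV, COX6C had 113 and 88.6 CPM in controls and 158 and 176 CPM after heat shock, with a change of 0.73 ± 0.21, and COX6A1 had 0.74 ± 0.27. DESeq2 called 11 members in this comparison, all higher, or 13.9%, where it called 5.29% of all genes higher: ATP5J, ATP5H, NDUFA4, NDUFA8, NDUFA12, NDUFB3, NDUFB10, COX6C and UQCRC1 beside SDHB and UQCRQ. On log2(TPM + 1), limma called 1, SDHB.

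Core and structural subunits of complexes I, IV and V, named for their roles, had footprint changes in senescent cells that ran from near 0 to as large as those above, and none was called by edgeR. NDUFS1, the large iron-sulfur subunit of complex I, had 0.36 ± 0.20 and NDUFV1 had 0.37 ± 0.19. NDUFS7 and NDUFS8, which carry iron-sulfur clusters close to the membrane, had 0.86 ± 0.43 and 0.83 ± 0.35, with wide errors, and replicate 2 lay above replicate 1 in both groups. NDUFA4 had 285 and 273 CPM in controls and 402 and 480 CPM after heat shock, a change of 0.66 ± 0.17. COX4I1, an early-assembling subunit of complex IV, had 0.10 ± 0.18, with 354 and 343 CPM in controls and 366 and 379 CPM after heat shock, which do not overlap, while on the TPM scale its heat-shocked libraries lay below the controls, at 808 and 714 against 990 and 877 TPM. The catalytic ATP5B had 0.41 ± 0.18, ATP5A1 0.24 ± 0.23 and ATP5C1, the central stalk, 0.50 ± 0.17. The c-ring genes differed in size, with ATP5G1 at 0.72 ± 0.23, ATP5G3 at 0.51 ± 0.19 and ATP5G2 at 0.12 ± 0.24, a difference between them that was not tested.

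The size of the shift in senescent cells depended on the library. Over the members, heat-shocked senescent replicate 1 lay 0.33 above the mean of the controls in log2 CPM and replicate 2 lay 0.69 above it, against 0.17 and 0.29 for the heat-shocked young libraries. Without heat-shocked senescent replicate 2 the median of the members tested was 0.30. Replicate 2 stood higher in each complex, from 0.60 in complex III to 0.83 in complex II, against 0.28 in complex V to 0.52 in complex II for replicate 1. The number of members called without 1 library ran from 0 to 17, with 17 called without heat-shocked senescent replicate 1 and 0 without senescent control replicate 1, senescent control replicate 2, heat-shocked senescent replicate 2, or either young control. Shares of all genes called in these fits are not reported here, so the counts are not a result about the members alone. In very short members the footprint libraries also split within groups: ATP5E had 31.2 and 89.6 CPM in senescent controls and 42.9 and 143 CPM after heat shock, the higher value in replicate 2 each time, and COX8A had 242 and 118 CPM in senescent controls, the higher in replicate 1.

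**Figure D4:**
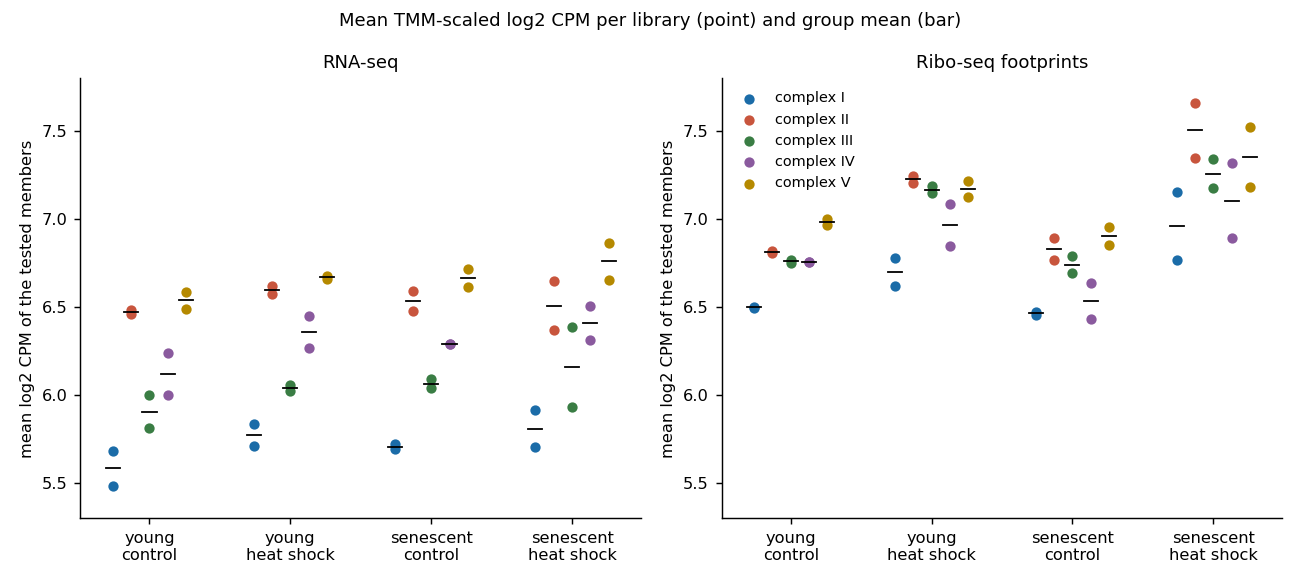
Mean log2 CPM (TMM-scaled) of the tested members of each complex in each library, with bars at group means, for RNA and footprints. In footprints, heat-shocked senescent replicate 2 is the highest library in all 5 complexes, with complex II at 7.66 against 6.77 and 6.89 in the senescent controls.

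**Figure D5:**
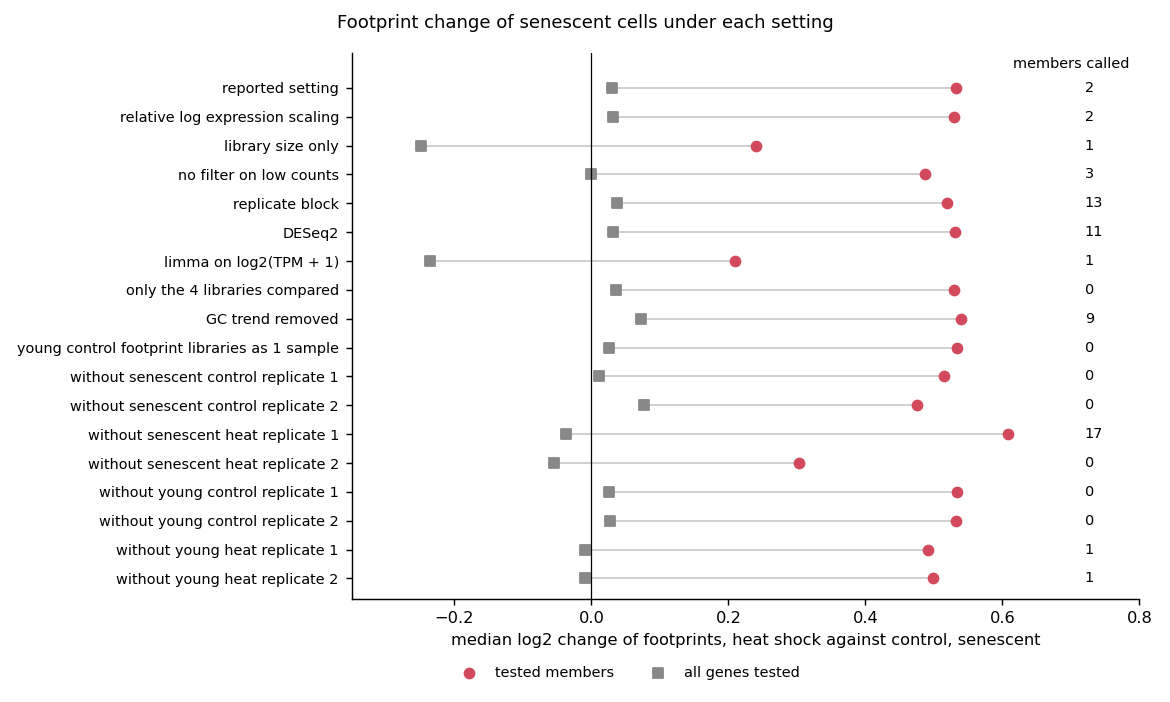
Median log2 footprint change on heat shock in senescent cells for the tested members (circles) and all genes tested (squares) under each processing setting and with each library left out, with the number of members called at the right. The members lie above all genes in each row, from 0.21 to 0.61, while the number called runs from 0 to 17. Shares of all genes called are not shown.

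Coding length went along with the footprint change. The median coding length was 462 nucleotides for the members and 1437 for all genes in the footprint test, and 55 of the 79 members had at most 600. In senescent footprints the 1312 other genes of at most 600 nucleotides had a median change of 0.36, and the 2581 genes above 2400 had -0.14. In young footprints the same short genes had 0.09, beside 0.25 for the members, and in the difference of the footprint responses 0.23, beside 0.25. The members' median of 0.53 in senescent cells thus stands beside 0.36 for the other short genes and 0.03 for all genes. Length was not adjusted for, and its part in the members' shift was not tested. Members with a promoter motif and members without one had footprint medians of 0.60 (29 members) and 0.53 (26 members) in senescent cells, and RNA medians of 0.20 and 0.20 in young cells. In other comparisons the medians lay further apart, in either order. Young footprints on heat shock had 0.35 with a motif and 0.21 without. Footprints of senescent against young heat-shocked cells had 0.13 with a motif and 0.33 without. Differences between these sets were not tested.

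Footprints relative to RNA, called translational efficiency here, were compared in a fit of all 16 libraries. On heat shock in senescent cells the median change in efficiency of the 79 tested members was 0.46, against 0.07 for all 11166 genes tested, and 73 of 79 were above 0, or 92.4% against 54%. The 1256 other genes of at most 600 coding nucleotides had a median of 0.42, near that of the members, and the 2553 genes above 2400 had -0.22; the part of length was not tested. In edgeR's test 1 of 79 was called, SDHB, or 1.27%, where 0.233% of all genes were called higher, 2.10% lower and 2.33% in all. At an unadjusted p under 0.05 there were 12 higher, or 15.2% against 6.52%, and 0 lower against 10.5%. The efficiency of SDHB rose by 1.10 ± 0.26, with an adjusted p of 0.04114 in edgeR's test. This call was lost in 11 of the 16 fits that left out 1 library, with adjusted p up to 0.1755 in edgeR's test, and held by DESeq2. On the TPM ratio, footprints per RNA of SDHB stood at -0.97 in senescent controls, percentile 15.7 of all genes, and at 0.04 in heat-shocked senescent cells, percentile 51.1. The RNA TPM that enters this ratio lay lower after heat shock. Without heat-shocked senescent footprint replicate 2 the members' median was 0.24. Complex medians of the efficiency change were 0.50 (I), 0.63 (II), 0.39 (III), 0.46 (IV) and 0.40 (V).

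Efficiency on heat shock in young cells moved less. The median was 0.09, against 0.02 for all genes, and 54 of 79 members were above 0 against 52.1% of all genes; 0 of 79 were called in edgeR's test, where 0.0896% of all genes were, with 1 higher and 0 lower at an unadjusted p under 0.05 against 4.10% of all genes, and DESeq2 and limma voom called 0. The share of all genes called there by DESeq2 was 0.412%. Complexes II and III had 0.27 and 0.30, and I, IV and V 0.07, 0.07 and 0.06. The difference of the efficiency responses, senescent minus young, had a median of 0.35 over the members and 0.01 over all genes, with 66 of 79 above 0 against 50.7% of all genes. The other short genes had 0.29, and without heat-shocked senescent footprint replicate 2 the median was 0.11. Of single members 0 were called in edgeR's test, where 0.00896% of all genes were, with 3 higher at an unadjusted p under 0.05 against 2.22% of all genes in either direction; DESeq2 and limma voom called 0. For this difference DESeq2 called 0.0358% of all genes. SDHB had 0.87 ± 0.37 with an adjusted p of 0.9999 in edgeR's test.

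The difference of the footprint responses, senescent minus young, had a median of 0.25 over the members and -0.01 over all genes, and 68 of the 79, or 86.1% against 49.7%, were above 0. Of single members 0 were called in edgeR's test, where 0% of all genes were, with 3 higher and 0 lower at an unadjusted p under 0.05 against 4.92% of all genes; DESeq2 and limma on TPM called 0. Of all genes, DESeq2 called 0.0886% there. Complex medians were 0.26 (I), 0.17 (II), 0.15 (III), 0.31 (IV) and 0.30 (V). Without heat-shocked senescent replicate 2 the members' median was 0.06. A response of single subunits that differs between young and senescent cells was not detectable with these libraries. The responses compared here each use their own controls, while the comparisons of senescent with young cells below share libraries with them.

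Senescent and young control cells differed little. In RNA the median of the 82 tested members was 0.13 higher in senescent cells, against -0.00 for all genes, and 66 were above 0, or 80.5% against 49.6%; 0 were called in edgeR's test, where 0.0379% of all genes were, with 0 at an unadjusted p under 0.05 against 7.20% of all genes; DESeq2 and limma on TPM called 0. Of all genes, DESeq2 called 1.09% there. Senescent libraries lay above both young ones for 32 members, or 39.0% against 17.8% of all genes, and below both for 2, against 18.1%. Complex medians ran from 0.09 in II to 0.17 in IV. UQCR11 had the highest single value, 0.50 ± 0.26, with 60.4 and 79.3 CPM in young and 81.5 and 116 CPM in senescent controls, followed by NDUFA7 at 0.49 ± 0.22. This RNA change had a rank correlation with transcript GC content of 0.53 over the members and 0.43 over all genes. On heat shock it was 0.38 and 0.15 in young cells and 0.60 and 0.30 in senescent cells. Between heat-shocked senescent and young cells it was 0.63 and 0.49. The part of GC content was not tested. On the TPM scale the members' median was -0.00. The 1456 other genes of at most 600 coding nucleotides had a median of 0.09 in edgeR's fit.

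In footprints of control cells the members' median was -0.07 in senescent against young cells, against -0.01 for all genes, and 32 of 79 were above 0 against 49.1% of all genes. None was called (0 of 79) in edgeR's test, where 0% of all genes were, with 1 higher at an unadjusted p under 0.05 against 7.85% of all genes; DESeq2 and limma on TPM called 0. That 1 was UQCR11, at 0.87 ± 0.25 with an adjusted p of 0.3676 in edgeR's test. Of all genes, DESeq2 called 0.983% in this footprint comparison. Complex medians lay between -0.10 and 0.02, and the 1312 other genes of at most 600 coding nucleotides had a median of -0.09. Efficiency in control cells had a median of -0.16 for the members and -0.00 for all genes, with 14 of 79 above 0, or 17.7% against 49.4%, and the lowest complex median, -0.29, in complex IV. The 1256 other genes of at most 600 coding nucleotides had -0.17, near the members, and the 2553 genes above 2400 had 0.17. The part of length was not tested. Of single members 0 were called for efficiency in edgeR's test, where 0.00896% of all genes were, 0 had an unadjusted p under 0.05 against 0.779%, and DESeq2 and limma voom called 0. The share of all genes called by DESeq2 for this efficiency was 0.0537%.

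Under heat shock, senescent cells had higher footprints of most members than young cells. The median was 0.21, against 0.00 for all genes, and 67 of 79 were above 0, or 84.8% against 50.3%. In edgeR's test 0 were called, where 0.00886% of all genes were; 4 were higher and 0 lower at an unadjusted p under 0.05 against 13% of all genes, and DESeq2 and limma on TPM called 0. Of all genes, DESeq2 called 1.13% in these footprints. Complexes I and II stood highest, at 0.29 (35 of 37 above 0) and 0.27 (4 of 4), followed by V at 0.20 (15 of 18), IV at 0.09 (9 of 12) and III at 0.04 (4 of 8). Without heat-shocked senescent replicate 2 the members' median was 0.03. In RNA of heat-shocked cells the median was 0.04, against -0.04 for all genes, with 44 of 82 above 0 against 46.4% of all genes; 0 were called in edgeR's test, where 0% of all genes were, 3 were higher at an unadjusted p under 0.05 against 11.5% of all genes, and DESeq2 and limma on TPM called 0. Without heat-shocked senescent RNA replicate 2 that median was -0.11. The share of all genes called by DESeq2 in this RNA comparison was 1.86%. Efficiency had a median of 0.14, against 0.03, with 55 of 79 above 0 against 51.9% of all genes, and 0 called in edgeR's test, where 0% of all genes were, 2 higher at an unadjusted p under 0.05 against 6.56%, and 0 by DESeq2 or limma voom. Without heat-shocked senescent footprint replicate 2 the efficiency median was -0.11. For this efficiency DESeq2 called 0.161% of all genes. The other genes of at most 600 coding nucleotides had medians of 0.13 in footprints, 0.01 in RNA and 0.13 for efficiency. The part of length was not tested.

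The share of all counts held by the 88 members was of a like size in all conditions. In RNA it was 0.855% and 0.908% in young controls, 0.825% and 0.821% in heat-shocked young cells, 0.949% and 0.897% in senescent controls and 0.801% and 0.881% in heat-shocked senescent cells. After heat shock the RNA share lay below the controls in both states. In footprints it was 1.29% and 1.31%, 1.30% and 1.38%, 1.25% and 1.22%, and 1.33% and 1.49% in the same order. The footprint share of heat-shocked senescent cells lay above that of their controls, and that of heat-shocked young cells overlapped with theirs.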

How the data were processed

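RNA-seq and Ribo-seq libraries of WI-38 cells (16 in 8 groups of 2) were analysed from gene tables. Expected counts from RSEM were deposited by gene and held whole numbers only. TPM, deposited by the authors beside them, are corrected for transcript length. Tools listed without a role in the submitters' processing notes are Bowtie2, STAR and RSEM, with the build hg19; annotation and read trimming are not given there. The symbols listed for the mitochondrially encoded subunits had no row in the tables as analysed.

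The quasi-likelihood test of edgeR 4.0.16 (R 4.3.3) was run on expected counts after filterByExpr and TMM scaling, with Wald SE, over all groups of an assay, with 4 residual degrees of freedom; efficiency used all 16 libraries, with 8. P-values were Benjamini-Hochberg adjusted over all genes tested, threshold 0.05. The limma version was 3.58.1 and that of DESeq2 1.42.0. TPM had a pseudocount of 1. Reads carry no molecular identifiers, and depth sets the precision of low genes.

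Members, gene lists and the rule for named genes were chosen with earlier results of these data known. Named per comparison and complex are members past the threshold (up to 4 by adjusted p) or else those with the largest change in each direction at a mean of at least 10 CPM, beside a panel of catalytic and structural subunits and all isoforms of a subunit; not all are printed, some single genes are not reported here, and any other named member was picked with its values in view. The alternatives tried are other scalings, no filter, DESeq2, limma on TPM, a removed GC trend, a replicate block and each library left out.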

Additional observations from a re-analysis of the deposited data

How the results depend on the processing

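Over these alternatives no result with a call changed sign. Scaling by library size alone gave members' medians of -0.10 (RNA, young heat shock), -0.14 (RNA, senescent heat shock), -0.0025 (footprints, young) and 0.24 (footprints, senescent), and limma on log2(TPM + 1) gave -0.076, -0.12, 0.062 and 0.21, with -0.00034 for RNA of senescent against young controls and 0.054 for footprints of senescent against young heat-shocked cells. Of members called in RNA of heat-shocked young cells, there were 1 with no filter, 2 by DESeq2 and 1 with the GC trend removed. DESeq2 called 3.38% of all genes there, and the fit with the GC trend removed 3.03%. In young footprints there were 2 with no filter, 1 by DESeq2, 1 with the GC trend removed and 1 with only the 4 libraries compared. Of all genes, 4% were called there by DESeq2 and 1.67% with the GC trend removed. In senescent footprints there were 1 by library size, 11 by DESeq2, 1 by limma on TPM, 9 with the GC trend removed, 0 with only the 4 libraries compared and 0 with the young controls as 1 sample, against 2. With no filter, 1 member was called in footprints of senescent against young heat-shocked cells. For efficiency in senescent cells, 0 were called with no filter, 0 by limma voom with sample weights and 0 with the young controls as 1 sample, against 1. Leaving out each library in turn gave 0 to 17 members called in senescent footprints, 0 to 1 in young footprints, 0 to 1 in footprints of senescent against young heat-shocked cells and 0 to 1 for efficiency in senescent cells. Shares of all genes called are not reported here for these fits, with no filter or with only the 4 libraries compared. Medians then ran from -0.059 to 0.21 (RNA, senescent heat shock), -0.22 to 0.035 (RNA, difference of responses), -0.11 to 0.20 (RNA, senescent against young under heat shock), 0.30 to 0.61 (senescent footprints), 0.056 to 0.40 (footprint difference of responses), 0.029 to 0.34 (footprints under heat shock), 0.24 to 0.63 (efficiency, senescent), 0.11 to 0.50 (efficiency, difference of responses) and -0.11 to 0.31 (efficiency under heat shock). Counting only annotated subunits, or NDUFA4 with complex IV, moved no complex median beyond the spread between replicates.

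Replicate numbers are shared by the groups without a stated meaning. As a check of pairing, replicate 1 minus replicate 2 was correlated over all genes between each pair of groups, giving 0.481 to 0.658 in RNA and -0.038 to 0.329 in footprints. Over the members alone it was 0.141 to 0.763 in RNA, 0.655 to 0.718 in footprints of the 3 groups other than young controls, and -0.268 to -0.17 between these and young controls. With the replicate number as a block, members called were 2 (RNA, young heat shock), 1 (RNA, senescent heat shock), 5 (RNA, senescent against young under heat shock), 1 (young footprints), 13 (senescent footprints) and 5 (efficiency, senescent). The members' shares were 2.44%, 1.22%, 6.1%, 1.27%, 16.5% and 6.33%, beside 8.77%, 6.28%, 13.7%, 2.92%, 14.8% and 10.6% of all genes called in either direction. All 13 in senescent footprints and all 5 for efficiency were higher, where 5.98% and 3.25% of all genes were called higher. With the GC trend removed the 9 in senescent footprints, 11.4%, stood beside 4.03% of all genes called higher.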

Other observations

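Genes that serve the same system without being subunits were measured beside the members, from lists chosen with earlier results known. In footprints of senescent cells on heat shock, the 16 citric acid cycle genes had a median log2 change of 0.48, and 16 of 16 were above 0, where 51.6% of all genes tested were. Among them FH, fumarase, rose by 0.80 ± 0.18 with an adjusted p of 0.03271 in edgeR's quasi-likelihood test. In young footprints the same 16 had a median of 0.28 with 15 above 0, and in RNA 0.03 in young and 0.00 in senescent cells. The 49 tested assembly factors had 0.32 in senescent footprints with 37 above 0 and 0 called by edgeR (9 higher, or 18.4%, and 1 lower, or 2.04%, at an unadjusted p under 0.05, against 12.9% and 15.8% of all genes), and their RNA had a median of -0.11 with 15 of 50 above 0. The copper chaperone COX17 had 0.97 ± 0.25 with an adjusted p of 0.0505 in edgeR's test. Effects of the alternatives on these lists were not computed.

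Of the 24 electron carriers and entry points tested in senescent footprints, 18 were above 0, with a median of 0.30 against 0.03 for all genes. ETFA, a subunit of the flavoprotein that passes electrons from fatty acid oxidation, rose by 0.78 ± 0.17 with an adjusted p of 0.02853 in edgeR's test. SLC25A6, an ADP/ATP carrier of the inner membrane, went the other way, at -1.16 ± 0.24 with an adjusted p of 0.02694 in edgeR's test. Of 12 tested regulators of mitochondrial biogenesis, 8 were above 0, against 51.6% of all genes, and the coactivator gene PPRC1 had -1.07 ± 0.20 with an adjusted p of 0.01875 in edgeR's test, while TFAM, which packages mitochondrial DNA, had 0.22 ± 0.38.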
